A study of Mus musculus with 9 samples.

Results

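Transcripts of 10 feedback regulators of MAP kinase signaling were compared between ROP7-activated CD8 T cells of 3 clones. The members were taken by name: the dual-specificity phosphatase genes Dusp1, Dusp2, Dusp4, Dusp5, Dusp6 and Dusp10, the Sprouty genes Spry1 and Spry2, and the Spred genes Spred1 and Spred2. All 10 were among the 24060 genes of the deposited table, and all 10 were among the 11330 genes whose highest value exceeded 1 TPM. TPM, a transcript level whose sum over genes is equal between libraries, is corrected for gene length, so levels of different genes can be set side by side.

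The cells came from transnuclear mice, cloned by transfer of the nucleus of a Toxoplasma-specific CD8 T cell, so that each line carries 1 rearranged T cell receptor in its endogenous loci on a Rag2-proficient BALB/c background. All 3 receptors bind the same ROP7 peptide on H-2Ld, and the submitters rank their affinity for it R7-I > R7-III > R7-II and their self-reactivity R7-III > R7-I > R7-II. Spleen cells were cultured overnight in the presence of IL-2 (10 ng/ml) and of 10 µM ROP7 peptide, and live CD3+ CD8+ tetramer-positive cells were sorted for RNA. The affinity order is that of purified receptors, and the study's measurement on membrane-anchored receptors separated R7-I and R7-III little. Each clone gave 3 libraries, named biological replicates, and every group had received peptide, so the values describe activated cells of lines that differ in receptor. Each clone is 1 receptor, so affinity, self-reactivity and any other difference between the lines cannot be told apart. Several cell sorters were used, and which library came from which sorter and the ages of the mice are not given in the sources used here.

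When a T cell receptor binds its ligand, the Ras-ERK branch of MAP kinase signaling is switched on within minutes, and activated ERK induces genes whose products turn the same pathway down. Dual-specificity phosphatases remove the phosphates from the activation loop of MAP kinases; some, such as Dusp6, prefer ERK, and others, such as Dusp10, prefer p38 and JNK. Sprouty proteins act at the step between receptor and Raf, and Spred proteins bring the Ras inhibitor neurofibromin to the membrane. In T cells several of these genes, among them Dusp4, Dusp5, Dusp6 and Spry2, are known targets of ERK signaling.

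Promoters are shown for the members that passed in 2 of the comparisons described below, other than Dusp4, because the direction of the change differed among them. RefSeq promoter sequences of build GRCm38.p6, the same build as mm10, matched 9 of the 10 members. Dusp4 was the member without a match, so its promoter is not shown. The 250 bases before the annotated start are printed 5′ to 3′, and capitals mark a match to 1 of the full motifs, searched on both strands.
Dusp1 promoter, chr17:26508473-26508722, minus strand: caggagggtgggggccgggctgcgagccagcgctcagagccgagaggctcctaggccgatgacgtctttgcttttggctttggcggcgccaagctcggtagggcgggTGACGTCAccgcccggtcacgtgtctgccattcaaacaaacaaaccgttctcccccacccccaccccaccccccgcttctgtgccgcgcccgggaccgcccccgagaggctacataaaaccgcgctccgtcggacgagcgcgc
Dusp10 promoter, chr1:184034131-184034380, plus strand: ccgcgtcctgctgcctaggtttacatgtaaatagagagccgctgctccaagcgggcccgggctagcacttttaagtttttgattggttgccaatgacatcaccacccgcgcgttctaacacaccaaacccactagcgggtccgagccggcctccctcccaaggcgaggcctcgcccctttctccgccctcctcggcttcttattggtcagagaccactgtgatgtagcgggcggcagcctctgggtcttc
Dusp5 promoter, chr19:53528895-53529144, plus strand: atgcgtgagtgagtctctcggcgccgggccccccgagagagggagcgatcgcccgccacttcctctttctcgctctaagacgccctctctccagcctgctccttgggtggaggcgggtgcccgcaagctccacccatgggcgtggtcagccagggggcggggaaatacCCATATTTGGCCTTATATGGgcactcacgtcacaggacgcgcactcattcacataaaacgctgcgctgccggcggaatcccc
Dusp6 promoter, chr10:99262981-99263230, plus strand: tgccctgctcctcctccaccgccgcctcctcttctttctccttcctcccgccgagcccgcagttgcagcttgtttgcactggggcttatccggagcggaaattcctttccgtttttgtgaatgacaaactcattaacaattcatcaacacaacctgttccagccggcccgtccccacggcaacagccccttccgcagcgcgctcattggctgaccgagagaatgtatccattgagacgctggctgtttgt
Spry2 promoter, chr14:105896820-105897069, minus strand: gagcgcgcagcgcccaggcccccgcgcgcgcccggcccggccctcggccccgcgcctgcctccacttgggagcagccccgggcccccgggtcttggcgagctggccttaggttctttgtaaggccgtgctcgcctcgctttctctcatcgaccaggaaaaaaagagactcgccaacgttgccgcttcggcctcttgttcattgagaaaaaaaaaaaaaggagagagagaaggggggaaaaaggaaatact
The motifs were the cyclic AMP response element TGACGTCA, the AP-1 site TGACTCA or TGAGTCA, the EGR site GCGTGGGCG, the NFAT core TGGAAAA and the CArG box bound by serum response factor. Dusp1 held the cyclic AMP response element at positions -143 to -136 from the start, which 1.55% of all 32851 promoters of this length held. Dusp5 held 2 CArG boxes in tandem at positions -82 to -73 and -72 to -63, and 1.47% of all promoters held at least 1. No other of the 9 promoters held either motif. The shorter site TGACG, which the full cyclic AMP response element contains, was held by Dusp1, Dusp5 and Spred2 and by 17.8% of all promoters, and is not capitalized on its own. None of the 9 held the AP-1, EGR or NFAT letters, which 4.46%, 0.536% and 5.93% of all promoters held. A match describes letters and not a bound site.

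The libraries were checked before the members were compared. Between 13738 and 14434 genes were above 0 TPM in a library, and log2(TPM + 1) of libraries of the same clone correlated at Pearson's r of 0.992 to 0.997 across genes, which are not independent replicates. TPM does not keep sequencing depth, so the number of reads behind a value is unknown and no counting interval is given. Cd8a stood at 338.55 TPM or more and Cd3e at 267.14 TPM or more in every library. T cell and CD8 genes also differed between clones. Added up, the 9 listed genes were highest in R7-II (2936 to 2976 TPM), followed by R7-III (2563 to 2653 TPM) and R7-I (2296 to 2402 TPM). For 7 of the 9, every R7-II library was above the other 6. Thy1 overlapped, and Cd5 went the other way, with clone means of 360 (R7-II), 545 (R7-I) and 684 TPM (R7-III). Cd4 was at 0.95 to 1.00 TPM in R7-II and at most 0.53 TPM in the other clones. The summed level of the 4 CD4 T cell genes was 3.36 to 4.11 TPM in R7-I, 4.03 to 5.81 TPM in R7-II and 5.62 to 8.01 TPM in R7-III, and its largest part was Cd40lg, whose mean TPM was 5.41 in R7-III, 2.65 in R7-I and 2.18 in R7-II. The NK cell genes Ncr1 and Klrb1c did not exceed 0.09 TPM and Klra8 was listed at 0 throughout, while Prf1, which activated CD8 T cells also express, was at 26.85 to 42.44 TPM in R7-I, 26.32 to 27.80 TPM in R7-II and 38.78 to 39.98 TPM in R7-III. Genes of other cells also differed between clones, and in R7-II the MHC class II gene Cd74 averaged 77.9 TPM. The summed level of 7 B cell genes was 32.1 to 67.4 TPM in R7-II, 7.73 to 14.4 TPM in R7-I and 4.77 to 6.92 TPM in R7-III, and that of 5 MHC class II genes was 101 to 168, 27.9 to 44.1 and 19.6 to 22.8 TPM. Every R7-II library was above the other 6 for 7 of the 7 B cell genes and 5 of the 5 MHC class II genes. The summed level of 8 myeloid genes was 19.5 to 75.7 TPM in R7-II, 0.80 to 2.18 TPM in R7-I and 2.40 to 4.19 TPM in R7-III, and every R7-II library was above the other 6 for 7 of the 8. Among the defining myeloid genes, Cd14 was listed at 0 in every R7-I library and Csf1r averaged 0.02 TPM in R7-III. The erythroid sum was 1.30 to 15.1 TPM in R7-II, 22.1 to 73.3 TPM in R7-I and 8.99 to 25.5 TPM in R7-III. The part of these cells in the results was not tested. In RNA of sorted cells a smaller share of expressing cells and less RNA per cell cannot be told apart.

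The question of the comparison was how feedback transcripts differed between clones of different affinity after the same peptide dose. Clones were compared by limma on log2(TPM + 1), with 1 model for the 9 libraries, p adjusted by Benjamini-Hochberg over the 11330 genes and a threshold of 0.01. Between R7-II and R7-I, 7 of the 10 members passed, 2 higher and 5 lower in R7-II. The background was 56.1% of all genes passing, with 40.6% higher and 15.5% lower. Over all genes passing the higher side was the larger, and among the members the lower side was. Between R7-II and R7-III, 5 members passed, 2 higher and 3 lower, against 53.6% of all genes, with 35.6% higher and 18.0% lower. Between R7-III and R7-I, 1 member passed, lower in R7-III, against 8.41% of all genes, with 6.96% higher and 1.45% lower. The median log2 fold change of the 10 members was -0.26 for R7-II against R7-I, where that of all genes tested was 0.17. Against R7-III the medians were -0.09 and 0.12, and for R7-III against R7-I they were -0.06 and 0.04. The comparisons share libraries. In both R7-II comparisons 5 members passed in the same direction, 2 higher (Dusp1 and Dusp10) and 3 lower (Dusp4, Dusp6 and Spry2), where 44.7% of all genes did, 31.9% higher and 12.8% lower. Without regard to the test, the libraries of 7 members did not overlap between R7-II and R7-I, 2 higher and 5 lower in R7-II, and this held for 71.2% of all genes, 50.6% higher and 20.6% lower. Between R7-II and R7-III it held for 6 members, 3 higher (Dusp1, Dusp2 and Dusp10) and 3 lower, and for 70.6% of all genes, 46.4% higher and 24.3% lower.

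**Figure D1:**
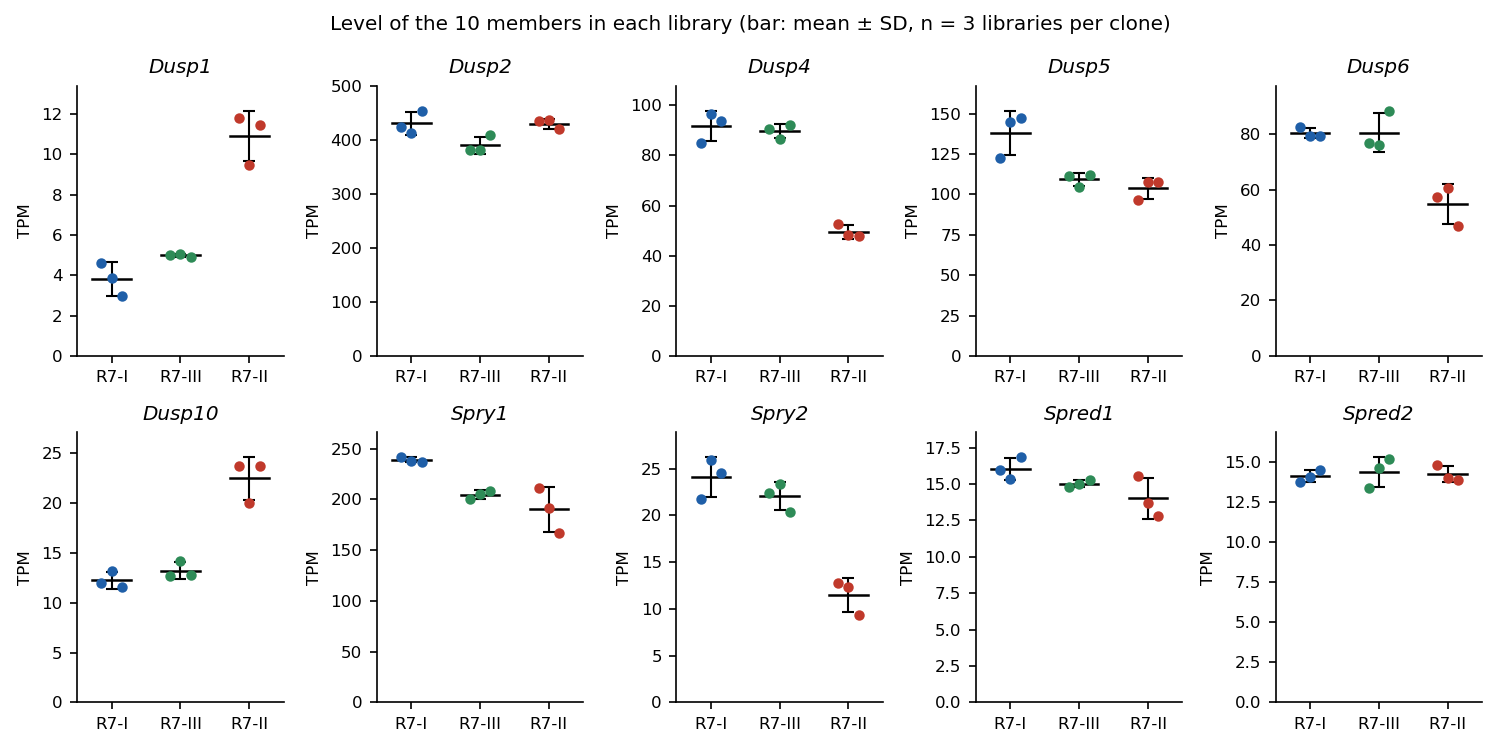
Level of each of the 10 members in TPM (linear axis from 0) in every library, 1 point per library, with the clones ordered from high to low affinity and bars giving mean ± SD of 3 libraries. The R7-II points of Dusp1 and Dusp10 lie above and those of Dusp4, Dusp6 and Spry2 below all 6 other points, while Spred2 points of all clones overlap.

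The members higher in R7-II were Dusp1 and Dusp10. Dusp1, an immediate-early gene whose nuclear product acts on p38, JNK and ERK, lies on chromosome 17 of mm10 (26505591 to 26508472). It was at 11.80, 9.46 and 11.45 TPM in the R7-II libraries, at 4.62, 3.88 and 2.96 TPM in R7-I and at 4.99, 5.06 and 4.92 TPM in R7-III. Every R7-II library exceeded the other 6, and those of R7-III were narrowly above those of R7-I. The mean was 10.9 ± 1.26 TPM in R7-II, which was 2.85 times the R7-I mean of 3.82 ± 0.832 TPM and 2.19 times the R7-III mean of 4.99 ± 0.0700 TPM (SD over 3 libraries of each clone). Relative to R7-I the log2 fold change was 1.31 (standard error 0.124, adjusted p = 6.24e-06), and relative to R7-III it was 0.99 with the same standard error (adjusted p = 5.08e-05, limma with Benjamini-Hochberg adjustment). At this low level the value depended on the constant added before the log, and against R7-I it was 0.85 with 5 TPM and 1.50488 with 0.1 TPM in place of 1 TPM. The difference of R7-III from R7-I, 0.33 on the log2 scale, did not pass (95% interval 0.05 to 0.60, adjusted p = 0.0929 from limma). With a mean of 6.57 TPM over all libraries, Dusp1 was the least abundant member.

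Dusp10, which encodes a phosphatase that acts mainly on p38 and JNK, lies on chromosome 1 (184034381 to 184075636). R7-II libraries held 23.71, 20.04 and 23.76 TPM, R7-I libraries 11.99, 13.24 and 11.55 TPM and R7-III libraries 12.67, 14.21 and 12.77 TPM. R7-II stood apart from both other clones, which overlapped. The mean of 22.5 ± 2.13 TPM was 1.84 times that of R7-I and 1.70 times that of R7-III. On the log2 scale this was a change of 0.82 against R7-I (standard error 0.0804, adjusted p = 7.83e-06) and 0.72 against R7-III (adjusted p = 2.11e-05, limma). The order of the clone means was R7-II > R7-III > R7-I for both genes.

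The B cell, MHC class II and myeloid markers were, like this pair, highest in R7-II. Dusp1 and the myeloid sum were higher in R7-III than in R7-I, and the B cell and MHC class II sums were lower. Among the R7-II libraries, replicate 2 had the lowest B cell, MHC class II and myeloid sums, at 32.1, 101 and 19.5 TPM, and it also had the lowest Dusp1 and Dusp10. In that library Dusp1 was 9.46 TPM, against at most 5.06 TPM in the other clones. Dusp10 was 20.04 TPM there, against at most 14.21 TPM. The B cell, MHC class II and myeloid sums of that library were likewise above those of the other clones. These reached at most 14.43, 44.05 and 4.19 TPM in the other clones. With each R7-II library left out in turn, the log2 fold change of Dusp1 against R7-I was between 1.26 and 1.40. That of Dusp10 was between 0.78 and 0.90. The part of other cells in these values was not tested. Reads were not strand-specific, and Dusp1 shares 11 exonic bases with Ergic1 of the opposite strand in GENCODE M21; the mean TPM of Ergic1 was 69.1 ± 2.04 in R7-III, 58.3 ± 2.46 in R7-I and 55.0 ± 4.77 in R7-II. The gene overlapping Dusp10, 1700056E22Rik, shares 0 exonic bases with it.

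Dusp4, Dusp6 and Spry2 were lower in R7-II than in either other clone. Dusp4, a nuclear phosphatase of ERK and JNK that ERK induces, lies on chromosome 8 (34807610 to 34819894). It was at 52.76, 48.23 and 47.80 TPM in R7-II, at 84.98, 96.70 and 93.78 TPM in R7-I and at 90.64, 86.70 and 92.02 TPM in R7-III. The R7-II libraries were far below the rest, and R7-I and R7-III overlapped. The mean of 49.6 ± 2.75 TPM in R7-II compared with 91.8 ± 6.10 TPM in R7-I, a level 1.85 times as high, and with 89.8 ± 2.76 TPM in R7-III, 1.81 times as high. Expressed as log2 fold change this was -0.87 against R7-I (standard error 0.0546, adjusted p = 3.88e-07) and -0.84 against R7-III (adjusted p = 4.71e-07, limma). R7-III differed from R7-I by -0.03 (95% interval -0.15 to 0.09, adjusted p = 0.756 from limma).

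Spry2, a Sprouty inhibitor of Ras-ERK signaling on chromosome 14 (105891947 to 105896819), was also lower in R7-II. It was at 12.73, 12.32 and 9.38 TPM in R7-II, at 21.80, 25.98 and 24.58 TPM in R7-I and at 22.41, 23.32 and 20.39 TPM in R7-III. No R7-II library reached the lowest library of the other clones. The R7-I mean of 24.1 ± 2.13 TPM was 2.10 times, and the R7-III mean of 22.0 ± 1.4996 TPM 1.92 times, the R7-II mean of 11.5 ± 1.83 TPM. The log2 fold change was -1.02 against R7-I (standard error 0.106, adjusted p = 1.23e-05) and -0.89 against R7-III (adjusted p = 3.26e-05, limma).

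Dusp6, a cytoplasmic phosphatase with a strong preference for ERK, lies on chromosome 10 (99263231 to 99267489). R7-II libraries held 57.21, 60.39 and 46.81 TPM, R7-I libraries 82.48, 79.33 and 79.22 TPM and R7-III libraries 76.91, 76.19 and 88.48 TPM. R7-II was again apart, with R7-I and R7-III at nearly equal means of 80.3 ± 1.85 and 80.5 ± 6.90 TPM. The log2 fold change was -0.55 against either clone (standard error 0.0858, adjusted p = 2.10e-04 against R7-I and 2.26e-04 against R7-III, limma). The difference of R7-III from R7-I lay within a 95% interval of -0.19 to 0.19 on the log2 scale (adjusted p = 1.00 from limma). These 3 members and the pair above were the 5 whose R7-II libraries did not overlap the other 6, and over all genes tested this held for 59.1%, with 41.7% higher and 17.4% lower in R7-II.

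Dusp5 and Spry1 parted R7-I from R7-II but did not pass between R7-II and R7-III. Dusp5, a nuclear phosphatase specific to ERK, lies on chromosome 19 (53529145 to 53541809) and carries the paired CArG boxes shown above. It was at 122.41, 144.55 and 147.51 TPM in R7-I, at 96.24, 107.52 and 107.75 TPM in R7-II and at 111.35, 104.45 and 112.02 TPM in R7-III. The R7-I libraries were all above the other 6, and R7-II and R7-III overlapped. R7-II was lower than R7-I by a log2 fold change of -0.41 (standard error 0.0697, adjusted p = 4.19e-04), and R7-III was lower than R7-I by -0.33 (adjusted p = 0.00875, limma), the only member that passed between these clones. R7-II and R7-III differed by -0.07 (95% interval -0.23 to 0.08, adjusted p = 0.365 from limma). The call between R7-III and R7-I did not hold when any of 7 single libraries was left out (adjusted p = 0.0366 and 0.0335 without R7-I replicates 2 and 3, 0.0102 and 0.0107 without R7-II replicates 2 and 3, and 0.0250, 0.0386 and 0.0230 without R7-III replicates 1, 2 and 3, limma), with adjusted p between 0.00222 and 0.0386 over all alternatives.

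Spry1, the other Sprouty gene, lies on chromosome 3 (37639947 to 37644599) and was much more abundant than Spry2 in every library. It was at 241.69, 237.80 and 237.13 TPM in R7-I, at 211.57, 191.39 and 167.22 TPM in R7-II and at 199.95, 205.05 and 208.58 TPM in R7-III. R7-I lay above the other clones, and the wide R7-II range enclosed that of R7-III. R7-II was lower than R7-I by a log2 fold change of -0.33 (standard error 0.0657, adjusted p = 0.00102, limma), while that against R7-III was -0.11 (95% interval -0.26 to 0.03, adjusted p = 0.155, limma). R7-III against R7-I gave -0.22 and did not pass (adjusted p = 0.0388, limma). Without R7-II replicate 1, the highest of its clone, Spry1 passed against R7-III at -0.19 (adjusted p = 0.00769) and between R7-III and R7-I (adjusted p = 0.00751). The latter also passed without R7-II replicate 3 (adjusted p = 0.00360), and over the alternatives adjusted p lay between 0.00686 and 0.654 in the former comparison and between 5.32e-04 and 0.116 in the latter (limma).

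Dusp2, Spred1 and Spred2 did not pass in any comparison. Dusp2, a nuclear phosphatase of activated lymphocytes on chromosome 2 (127336159 to 127338377), was the most abundant member and ranked 320 of the 11330 genes by mean TPM. It was at 424.27, 413.17 and 454.74 TPM in R7-I, at 435.65, 436.34 and 419.84 TPM in R7-II and at 381.04, 380.85 and 409.11 TPM in R7-III. R7-I and R7-II overlapped, with means of 431 ± 21.5 and 431 ± 9.33 TPM, and the R7-III libraries were below both. R7-II against R7-I gave a log2 fold change of 0.0006 (95% interval -0.09 to 0.09, adjusted p = 0.991, limma). R7-II against R7-III gave 0.14 and lay at the threshold (adjusted p = 0.0100178, limma). It passed there when R7-I replicate 2 (adjusted p = 0.00915), R7-I replicate 3 (0.00493) or R7-III replicate 3 (0.00407) was left out, with adjusted p from 2.74e-04 to 0.745 over the alternatives. R7-III against R7-I gave -0.14 (adjusted p = 0.0347, limma).

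Spred1, on chromosome 2 (117121071 to 117182279), averaged 16.1 ± 0.754 TPM in R7-I, 15.02 ± 0.227 TPM in R7-III and 14.0 ± 1.38 TPM in R7-II. Its R7-II libraries, at 15.52, 13.70 and 12.81 TPM, overlapped those of both other clones. The log2 fold change of -0.19 against R7-I missed the threshold (adjusted p = 0.0339, limma), and passed without R7-II replicate 1 at -0.26 (adjusted p = 0.00414, with adjusted p from 1.95e-04 to 0.130 over the alternatives). Spred2, on chromosome 11 (19924442 to 20024026), was the flattest member, between 13.35 and 15.18 TPM in all libraries. Its log2 fold changes were 0.01, -0.01 and 0.02 for R7-II against R7-I, R7-II against R7-III and R7-III against R7-I, and the 95% intervals lay between -0.14 and 0.16. Spred1 and Spred2 were thus of similar level, 15.03 and 14.3 TPM over all libraries, against 211 TPM for Spry1.

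**Figure D2:**
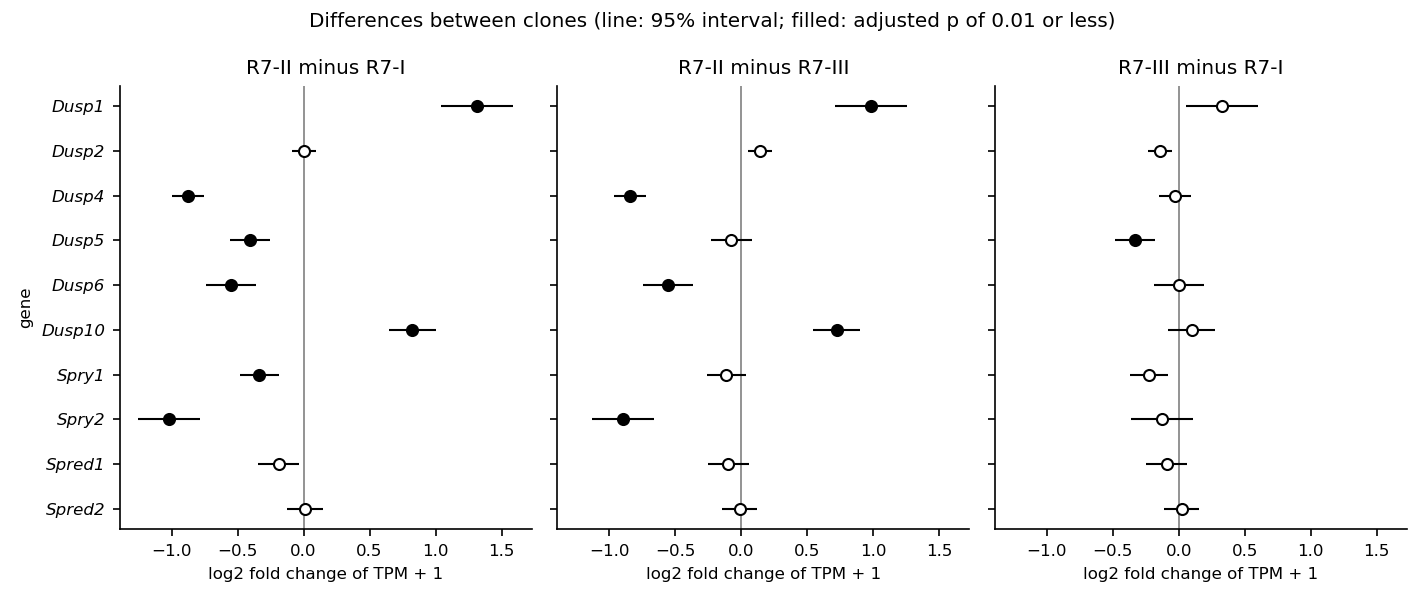
Log2 fold change of TPM + 1 with its 95% interval from limma (horizontal axis) for each member (vertical axis) in the 3 comparisons, filled where the adjusted p was 0.01 or less. Filled points lie on both sides of 0 in both panels of R7-II, from -1.02 for Spry2 to 1.31 for Dusp1 against R7-I, and Dusp5 at -0.33 is the only filled point between R7-III and R7-I.

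Ordered by clone means, 5 of the 10 members (Dusp4, Dusp5, Spry1, Spry2 and Spred1) followed the order of affinity of the purified receptors, R7-I > R7-III > R7-II, and 2 (Dusp1 and Dusp10) followed its reverse. The orders of Dusp2, Dusp6 and Spred2 were each held by 1 member. How many of all genes tested held each order was not counted, so these numbers have no background. For Dusp4, Spry2, Dusp1 and Dusp10 the neighbors R7-I and R7-III did not pass, and for Dusp5 the neighbors R7-III and R7-II did not. Spry1 and Spred1 passed between neither pair of neighbors. Of the members, 0 passed in all 3 comparisons, but Spry1 did without R7-II replicate 1 (adjusted p = 7.5e-05 for R7-II against R7-I, and the values given above for the others, limma). How many of all genes passed in all 3 was not counted, so this number has no background either. The libraries of 5 members did not overlap between R7-III and R7-I, Dusp1 higher in R7-III and Dusp2, Dusp5, Spry1 and Spred1 lower, where 41.9% of all genes did not overlap, 29.5% higher and 12.4% lower.

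The makeup of the phosphatase transcripts differed in R7-II. The summed level of the 6 Dusp members was 757 ± 30.0 TPM in R7-I, 688 ± 27.5 TPM in R7-III and 672 ± 13.1 TPM in R7-II. Dusp2 made up 64.1 ± 0.234% of that sum in R7-II, 56.9 ± 1.63% in R7-I and 56.7 ± 0.433% in R7-III. Dusp4 made up 7.38 ± 0.370% in R7-II, 12.1 ± 0.662% in R7-I and 13.1 ± 0.297% in R7-III. Dusp10 stood at 3.35 ± 0.362%, 1.62 ± 0.151% and 1.92 ± 0.183% in the same order. These shares are not independent of the single-gene values and were not tested. The ratio of Dusp10 to Dusp4 was 0.449, 0.416 and 0.497 in the R7-II libraries, and between 0.123 and 0.164 in the other 6. The ratio of Spry1 to Spry2 was 16.6, 15.5 and 17.8 in R7-II and between 8.79 and 11.1 elsewhere. Such ratios within a library do not change when a library is multiplied by a constant, as in median-of-ratios scaling, but do with quantile normalization. They were chosen after the values of the genes were seen.

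**Figure D3:**
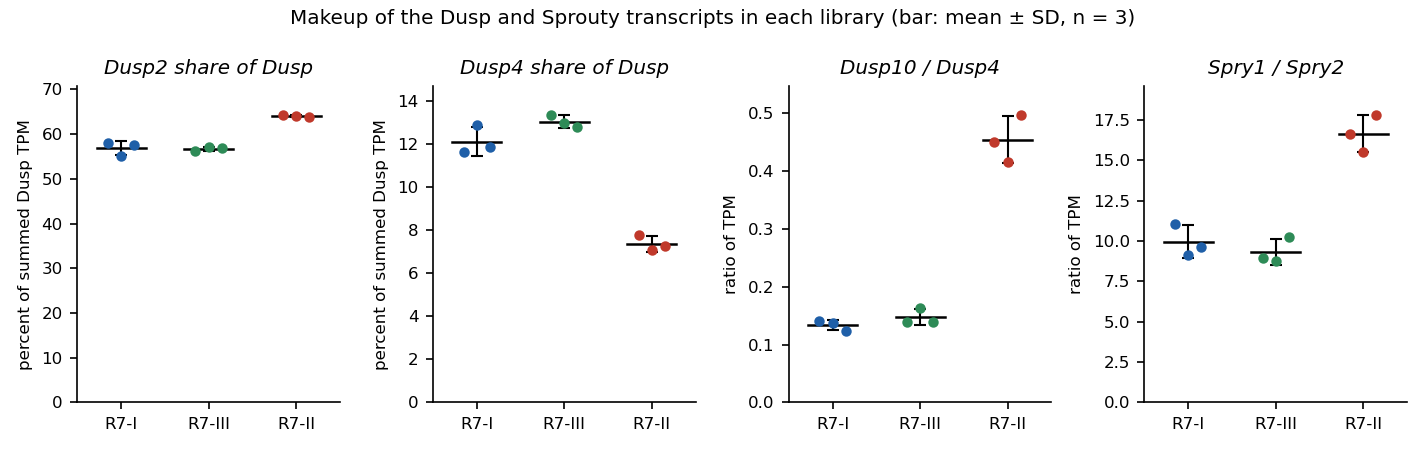
Share of Dusp2 and of Dusp4 in the summed TPM of the 6 Dusp members (percent) and the ratios of Dusp10 to Dusp4 and of Spry1 to Spry2, 1 point per library, with mean ± SD of 3 libraries and axes from 0. In all 4 panels the R7-II points are separate from the other 6, with the ratio of Dusp10 to Dusp4 at 0.416 to 0.497 against 0.123 to 0.164.

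Over the 9 libraries the members fell into opposed patterns on log2(TPM + 1). Pearson's r was 0.97 between Dusp1 and Dusp10 and also 0.97 between Dusp4 and Spry2, with Dusp6 at 0.93 to both of the latter. Dusp4 stood at -0.95 to both Dusp1 and Dusp10. Spry1 and Spred1 were at 0.92, and Spred2 had no r beyond 0.32 with any other member. These values describe 9 libraries of 3 clones and mostly carry the step between R7-II and the rest. The genes with the most similar pattern were Pdpr (r = 0.9940), Pitpnm1 (0.9935) and Ankrd10 (0.9933) for Dusp1 and AI837181 (0.9960), Ttc38 (0.9928) and Nudt16 (0.9923) for Dusp10. They were Ipo4 (0.9943), Lipg (0.9936) and Idi1 (0.9921) for Dusp4, and Bhlhe40 (0.9930), Ttll12 (0.9922) and Ywhaq (0.9903) for Spry2. Bhlhe40, a transcription factor gene of activated T cells, averaged 110 ± 6.02 TPM in R7-I, 97.9 ± 5.19 TPM in R7-III and 61.2 ± 5.69 TPM in R7-II.

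Other genes of the pathway gave the setting of these values. Of 11 further MAP kinase phosphatase, Sprouty and Spred genes, 6 exceeded the filter. Against R7-I 2 were higher and 2 lower in R7-II, and against R7-III 2 were lower, where 56.1% and 53.6% of all genes passed. With median-of-ratios scaling or quantile normalization 0 were higher and 2 lower against R7-I. Among all genes passing 47.7% were higher with the first of these scalings, and for the second this was not counted. The number passing against R7-I with TPM rested on single libraries, with 1 passing when R7-I replicate 1, R7-I replicate 2 or R7-II replicate 3 was left out and 0 without R7-I replicate 3. Ptpn7, a tyrosine phosphatase that binds ERK and p38 in lymphocytes, was lower in R7-II, at 82.3 ± 4.44 TPM, than in R7-I, at 93.3 ± 2.65 TPM, and R7-III, at 114 ± 3.08 TPM. It also parted R7-III from R7-I, with a log2 fold change of 0.28 (adjusted p = 0.00149, limma). Dusp14 was at 0.770 ± 0.184, 1.61 ± 0.0586 and 2.13 ± 0.557 TPM in R7-II, R7-I and R7-III, and was lower in R7-II in both comparisons (adjusted p = 0.00476 and 5.17e-04, limma).

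Among 20 genes of the Ras-ERK cascade itself, 11 passed against R7-I (9 higher and 2 lower in R7-II) and 12 against R7-III (9 higher and 3 lower), where the background was 56.1% and 53.6%. Mapk3, which encodes an ERK kinase, was higher in R7-II, at 25.7 ± 3.23 TPM, than in R7-I, at 14.7 ± 1.12 TPM, and R7-III, at 18.9 ± 0.690 TPM. Grb2, an adaptor upstream of Ras, and Rps6ka3, a kinase activated by ERK, were higher in R7-II with log2 fold changes against R7-I of 0.39 and 0.38. Ksr1, the scaffold that brings Raf, MEK and ERK together, was lower at 17.5 ± 1.64 TPM against 26.2 ± 1.41 TPM in R7-III and 26.3 ± 1.79 TPM in R7-I, and Hras was lower with log2 fold changes of -0.41 and -0.45. Median-of-ratios scaling turned the split into 6 higher and 7 lower against R7-I and 5 higher and 4 lower against R7-III. Among all genes passing with that scaling 47.7% and 47.9% were higher.

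Of 14 tested genes of the p38 and JNK cascade, 10 passed against R7-I, all higher in R7-II, and 10 passed against R7-III, 9 higher and 1 lower. All genes tested were higher in 40.6% and 35.6%, and among all genes passing 72.4% and 66.4% were higher. Mapkapk3, a kinase downstream of p38, averaged 68.2 ± 2.63 TPM in R7-II against 24.4 ± 2.17 TPM in R7-III and 26.7 ± 0.682 TPM in R7-I, with log2 fold changes of 1.32 against R7-I and 1.45 against R7-III (adjusted p = 7.07e-08 and 6.59e-08, limma). Map3k1, an upstream kinase of JNK, changed by 0.72 and 0.61 and Mapk11, a p38 gene, by 0.70 and 0.56. Median-of-ratios scaling left 9 higher and 2 lower against R7-I, where 47.7% of all genes passing were higher. Quantile normalization left 7 higher and 2 lower against R7-I and 7 higher and 1 lower against R7-III, and for it the share of all genes was not counted. Dusp1 and Dusp10, the members higher in R7-II, are those best known for action on p38 and JNK, though Dusp1 also acts on ERK. This grouping covers the members only, was made after the values were seen and was not tested. Among the further phosphatase genes, Dusp16 passed in neither R7-II comparison (0.21 and 0.02, adjusted p = 0.134 and 0.891, limma). Dusp7 was higher in R7-II against R7-I (0.24, adjusted p = 0.00814, limma). Between R7-III and R7-I, 0 genes of this list, of the Ras-ERK cascade or of the ERK response genes passed (limma), and at an unadjusted p under 0.05 the numbers were 1, 7 and 6.

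Genes known to respond to ERK went both ways, as the members did. Of 16 genes, 11 passed against R7-I (7 higher and 4 lower in R7-II) and 9 against R7-III (5 higher and 4 lower), where 56.1% and 53.6% of all genes did. The split against R7-I was 4 higher and 4 lower with median-of-ratios scaling, where 47.7% of all genes passing were higher. It was 5 and 5 with quantile normalization, for which that share was not counted. Fosb, Egr1 and Fos were higher in R7-II. Egr1 averaged 178 ± 12.3 TPM in R7-II against 98.8 ± 4.38 TPM in R7-III and 98.0 ± 3.08 TPM in R7-I, and Fos 11.3 ± 2.22, 6.14 ± 0.927 and 5.71 ± 0.575 TPM. Ier3, Phlda1 and Junb were lower in R7-II. Ier3 was at 5.14 ± 0.727 TPM in R7-II against 13.2 ± 1.47 TPM in R7-III and 13.0 ± 2.14 TPM in R7-I, and Junb at 146 ± 3.30 TPM against 194 ± 9.44 and 207 ± 7.66 TPM. The smallest log2 fold change in size among these 6 genes was -0.41, for Junb against R7-III (adjusted p = 1.05e-05, limma).

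**Figure D4:**
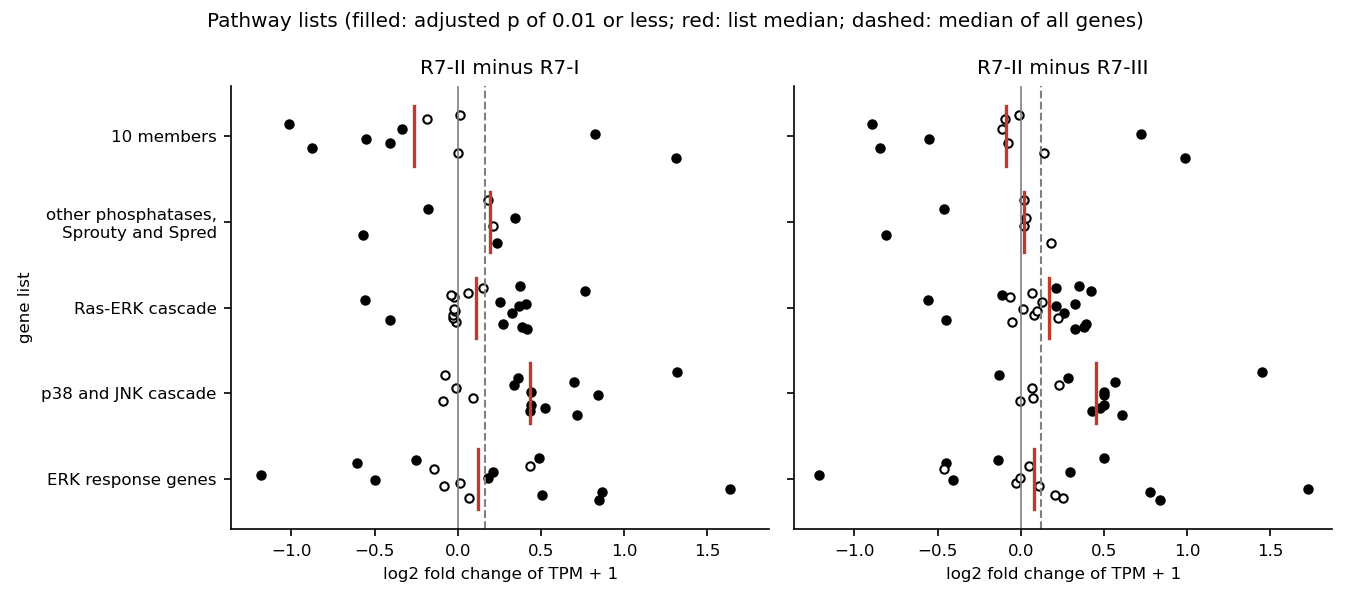
Log2 fold change of TPM + 1 (horizontal axis) of the tested genes of each list (vertical axis) for R7-II against R7-I and against R7-III, 1 point per gene, filled where the adjusted p was 0.01 or less, with the list median in red and the median of all genes dashed. The members spread to both sides with medians of -0.26 and -0.09, and the p38 and JNK cascade lies mostly to the right with medians of 0.44 and 0.45, where the medians of all genes are 0.17 and 0.12.

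The medians of all genes given above, 0.17 and 0.12 in the R7-II comparisons, became 0.0084 and 0.0042 with median-of-ratios scaling. That scaling brings these medians near 0 by design. It therefore cannot show whether the shift comes from TPM or from the cells. Relative to the median of all genes, R7-II differed from R7-I on the log2 scale by 1.15 for Dusp1, 0.66 for Dusp10, -0.57 for Dusp5, -0.72 for Dusp6, -1.04 for Dusp4, -1.18 for Spry2 and -0.50 for Spry1. With median-of-ratios scaling 9 of the members passed against R7-I, 2 higher and 7 lower, where 6179 of the 11330 genes tested passed. The additions were Dusp2 at -0.18 (adjusted p = 0.00280) and Spred1 at -0.35 (adjusted p = 5.36e-04, limma). Quantile normalization moved Dusp2 the other way, to 0.09 against R7-I (adjusted p = 0.0403) and 0.22 against R7-III (adjusted p = 2.74e-04, limma), so the direction of Dusp2 between R7-II and R7-I depended on the scaling. Against R7-III, median-of-ratios scaling gave -0.24 for Spry1, which then passed (adjusted p = 0.00686), and 0.02 for Dusp2 (adjusted p = 0.745), and between R7-III and R7-I Dusp2 passed at -0.19 (adjusted p = 0.00894, limma). Among all genes passing, 72.4% (R7-I) and 66.4% (R7-III) were higher in R7-II with TPM, and 47.7% and 47.9% with median-of-ratios scaling. Between R7-III and R7-I the share higher in R7-III went from 82.8% to 59.0%.

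**Figure D5:**
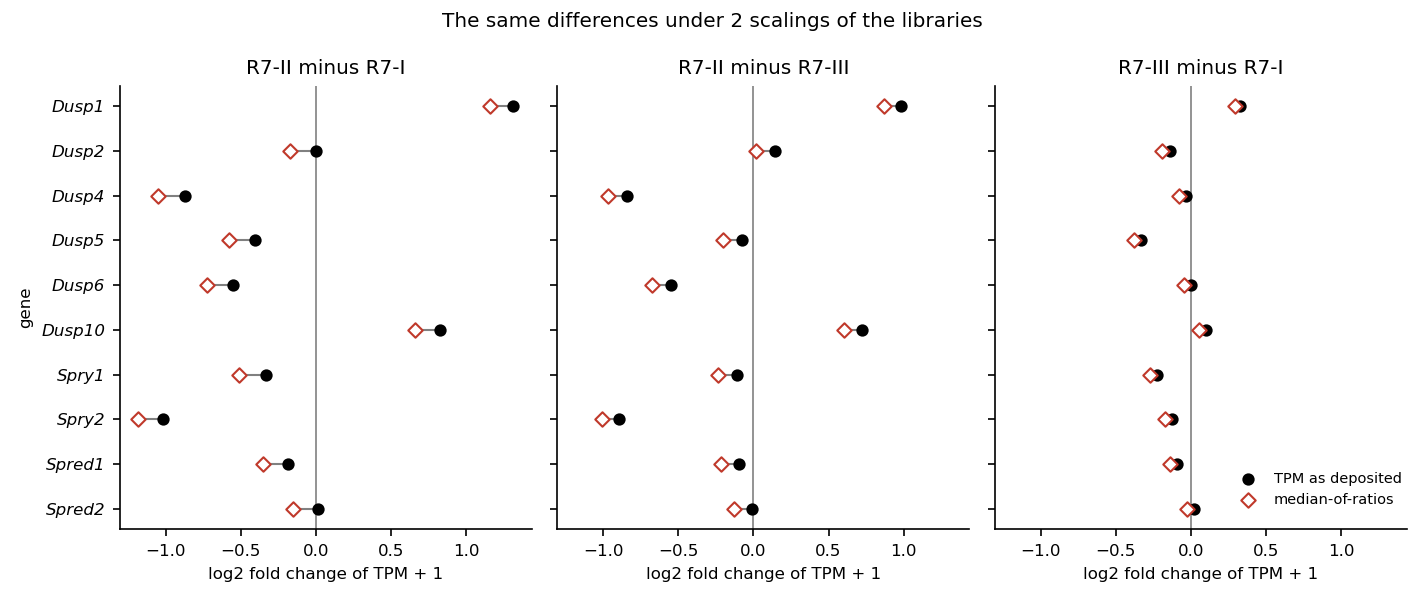
Log2 fold change of each member (vertical axis) in the 3 comparisons with TPM as deposited (black) and after median-of-ratios scaling (red diamonds). Each member moves to the left by a similar amount in the R7-II panels, Dusp1 and Dusp10 stay right of 0 at 1.16 and 0.66 against R7-I, and Dusp2 goes from 0 to -0.18.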

How the data were processed

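RNA of sorted, peptide-activated CD8 T cells was sequenced in 9 libraries, 3 per clone. The authors aligned and counted non-strand-specific single-end reads with RSEM 1.2.11 (RefSeq genes, mm10), and the values deposited by the authors are TPM by gene symbol. The aligner called within RSEM is not stated there. TPM keeps no depth, so no counting error is given. The authors tested counts with DESeq2 1.8.1, and those counts were not used here.

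Genes with a maximum TPM above 1 were kept, the filter that the study's methods state. log2(TPM + 1) was fitted in limma (3.58.1, under R 4.3.3; lmFit, eBayes with trend) in place of the count test, with Benjamini-Hochberg adjustment over 11330 genes and a threshold of 0.01. Fold changes on this scale understate those of low genes. Intervals are 95% intervals from the same fit. The fit was tested on simulated data. P-values measure the spread between libraries named biological replicates.

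Promoters are from RefSeq, gene positions from RefSeq and exon overlaps from GENCODE M21 (GRCm38, the build of mm10). 1 myeloid gene was matched by an older symbol, and 1 T cell gene (Trac) was not matched. The members and gene lists were chosen with earlier results of these data known. Named genes were all members, up to 3 genes of each list per direction that passed in both R7-II comparisons, 1 per direction between R7-III and R7-I, and 3 genes of most similar pattern for each of 4 members. Bhlhe40 values and the ratios were chosen after values were seen. Alternatives were other pseudocounts, filters, scalings, moderation and threshold, a model of the compared clones alone, a block for the replicate number, and omission of single libraries. Unstimulated samples were not analysed here.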

Additional observations from a re-analysis of the deposited data

How the results depend on the processing

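Over 30 pairs of a member and a comparison and 19 alternatives, 12 of the 13 pairs past the threshold kept their direction and call throughout, the exception being Dusp5 between R7-III and R7-I. Dusp5 did not pass there without the filter on low values (adjusted p = 0.0237), with quantile normalization (0.0174) or without trend (0.0271, limma). Between R7-II and R7-I the number of members passing stayed between 7 and 9. Between R7-II and R7-III it was 5 and became 8 with quantile normalization, for which the number of all genes passing was not counted. Between R7-III and R7-I it was 1 and became 0 without the filter on low values, with quantile normalization or without trend, 2 with median-of-ratios scaling or with only the clones compared in the fit, and 3 at an adjusted p of 0.05. In that last comparison 951 of all genes tested passed with median-of-ratios scaling. When single libraries were omitted the 3 numbers of members passing lay between 7 and 8, 5 and 6, and 0 and 2. Apart from median-of-ratios scaling, the number of all genes passing was not counted for any alternative. A change in the members thus cannot be told from a change in all genes there.

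With a pseudocount of 5 the log2 fold change of Dusp1 against R7-I was 0.85 in place of 1.31, and with median-of-ratios scaling that of Spry1 was -0.51 in place of -0.33, both past the threshold. Directions reversed for members near 0. Median-of-ratios scaling gave -0.18 for Dusp2 and -0.15 for Spred2 in R7-II against R7-I, and -0.049 for Dusp6 and -0.024 for Spred2 in R7-III against R7-I. Quantile normalization gave -0.27 for Spred2 in R7-II against R7-I (adjusted p = 0.00151, limma), and -0.040 for Dusp6 and -0.067 for Spred2 in R7-III against R7-I. With libraries left out, the range in R7-II against R7-I was -0.029 to 0.040 for Dusp2 and -0.015 to 0.031 for Spred2, that of Spred2 in R7-II against R7-III was -0.060 to 0.027, and the ranges in R7-III against R7-I were -0.084 to 0.0077 for Dusp4, -0.069 to 0.038 for Dusp6 and -0.015 to 0.071 for Spred2. The cause was not tested.

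Same-numbered libraries of different clones showed no strong shared deviation over all genes tested (correlation of deviations from clone means between -0.04 and 0.09). Libraries of different numbers gave -0.09 to 0.06. This cannot show how the libraries were handled, and the labels do not say whether the numbers pair them. With the replicate block 7, 5 and 1 members passed in the 3 comparisons, and the number of all genes passing was not counted there. The further phosphatase, Sprouty and Spred list, with 4 and 2 genes passing in the R7-II comparisons, ranged from 0 to 5 and from 1 to 4. Depth is unknown from TPM, so how far low members such as Dusp1 are limited by it cannot be given.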

Other observations

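A ratio of ERK-directed phosphatases was highest in R7-III, by a narrow margin. The ratio of Dusp6 to Dusp5 was 0.691, 0.729 and 0.790 in the R7-III libraries, 0.674, 0.549 and 0.537 in R7-I and 0.594, 0.562 and 0.434 in R7-II. The lowest R7-III library, at 0.691, was thus just above the highest of the other 6, at 0.674 in R7-I. The ratio was chosen after the values were seen and was not tested.

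The ratio of Dusp1 to Dusp10, the pair higher in R7-II, was 0.498, 0.472 and 0.482 in R7-II, 0.394, 0.356 and 0.385 in R7-III and 0.385, 0.293 and 0.256 in R7-I. Spred2 made up 6.24 ± 0.530% of the summed Spry1, Spry2, Spred1 and Spred2 transcripts in R7-II, 5.61 ± 0.264% in R7-III and 4.82 ± 0.131% in R7-I (SD, n = 3 libraries each), at a level of its own that differed little between the clones. That sum was 293 ± 0.0808 TPM in R7-I, 256 ± 4.77 TPM in R7-III and 230 ± 25.7 TPM in R7-II.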
